A study of Mus musculus with 6 samples.

Results

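The genes examined here encode the core of the NF-kB pathway. They are the subunit genes Nfkb1, Nfkb2, Rela and Relb, the inhibitor genes Nfkbia and Nfkbib, the feedback genes Tnfaip3 and Birc3, the kinase gene Ikbkb and the receptor gene Tnfrsf1a. They were taken by symbol from the deposited expression table, in which all 10 were found among 20273 gene rows. The libraries came from murine small cell lung cancer (SCLC) cells, a neuroendocrine lung tumour type, in 2 groups of 3. For the ERBB2 KO group a construct for RNA-guided Cas9 against the receptor tyrosine kinase gene Erbb2 was transfected, puromycin was used for selection, and clones were isolated by sorting for GFP. The WT group was labelled as wild type, and both groups were grown in the same serum-containing RPMI medium. The edited position is not in the labels, nor do they say if libraries within a group derive from separate cultures or clones, so p-values measure only the spread over these samples, which may in part be technical. The study calls the libraries of each group biological replicates. The comparison was made by the study to ask about the role of ERBB2 in antigen presentation.

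NF-kB proteins are dimeric transcription factors that inhibitor proteins (IkB) hold in the cytoplasm. Receptors such as the TNF receptor activate the IkB kinase, which marks the inhibitors for degradation and lets the dimers enter the nucleus, while a second, slower branch works through processing of the Nfkb2 product and its partner RelB. Several targets of the dimers, among them Nfkbia, Tnfaip3, Birc3, Nfkb2 and Relb, feed back on the pathway itself. Dimers containing RelA and p50 also act at the promoters of MHC class I and chemokine genes.

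The 6 libraries held between 8927461 and 13255671 reads, and 3 reads corresponded to 0.226 to 0.336 CPM (reads of a gene scaled to the library total), a limit that covers counting error only. Erbb2 itself measured 12.1, 6.19 and 2.80 CPM in ERBB2 KO 1 to 3, against 10.7, 3.95 and 6.64 CPM in WT 1 to 3. The groups overlapped (log2 difference -0.10 ± 0.52 SE, adjusted p = 0.941), so the RNA of the targeted gene gave no check of the labels. Libraries paired off by group only in part over all tested genes. ERBB2 KO 1 lay closest to WT 1, at a root mean square log2 difference of 0.907, and WT 1 lay closest to ERBB2 KO 2, at 0.627. ERBB2 KO 2 and 3 were nearest to each other, at 0.483, and so were WT 2 and 3, at 0.555. Xist, the RNA of the inactive X chromosome, stood at 207.5 CPM in WT 2 and 178 CPM in WT 3 but at no more than 0.112 CPM in the other 4 libraries, so WT 2 and WT 3 also differed from WT 1 in a way that the group labels do not give. For the 10 genes and for other genes that turn on a single library, the value without it is given too. Of 9 neuroendocrine markers, 4 were among the rows analysed here, and only Ncam1 reached 1 CPM in any library (121 to 353 CPM in ERBB2 KO, 277 to 1252.8 CPM in WT), while Chgb, Syp and Dll3 stayed at 0 or near it. Of 5 epithelial markers 4 were among the rows, with sums of 1409 to 1818 CPM in ERBB2 KO libraries and 751 to 2225 CPM in WT libraries. Most of this came from the keratin genes Krt8 and Krt18, while Krt7 measured 2.02, 0.254 and 0.519 CPM in ERBB2 KO 1 to 3, against 61.3, 279 and 2.19 CPM in WT 1 to 3, and Cdh1 passed 1 CPM only in WT 3 (10.0 CPM).

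Promoter sequence was available for 7 of the 10 genes in RefSeq (GRCm38.p6, the assembly behind mm10), as windows of 250 bases before to 50 after an annotated start. The 10-base kappaB consensus, the DNA element that NF-kB dimers bind, was searched on both strands. It was found for 3 of these genes, Nfkb2, Nfkbia and Tnfaip3, all of them feedback targets of the pathway in textbook accounts. Of all 32851 RefSeq windows 4.51% and of all 27025 genes 5.14% held a match. The windows of Rela, Nfkbib, Birc3 and Tnfrsf1a and a second Tnfaip3 window did not contain these letters, and Nfkb1, Relb and Ikbkb had no window. A match is a description of letters, not evidence that the site is used. The windows shown were chosen after the values were seen. They belong to the 3 genes with a match, which were each also highest in WT 2, and to Nfkbib. Nfkbib differed most clearly between the groups and held no match. Each window is given 5′ to 3′ on the gene's strand, with the matches in capitals.
Nfkb2, chr19:46304487-46304786, plus strand: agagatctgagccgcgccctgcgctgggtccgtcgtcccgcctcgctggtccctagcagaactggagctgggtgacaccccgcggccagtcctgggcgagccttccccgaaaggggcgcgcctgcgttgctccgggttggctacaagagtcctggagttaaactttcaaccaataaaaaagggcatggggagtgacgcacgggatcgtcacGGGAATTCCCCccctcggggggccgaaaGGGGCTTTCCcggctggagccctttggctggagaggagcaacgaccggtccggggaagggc
Nfkbia, chr12:55492598-55492897, minus strand: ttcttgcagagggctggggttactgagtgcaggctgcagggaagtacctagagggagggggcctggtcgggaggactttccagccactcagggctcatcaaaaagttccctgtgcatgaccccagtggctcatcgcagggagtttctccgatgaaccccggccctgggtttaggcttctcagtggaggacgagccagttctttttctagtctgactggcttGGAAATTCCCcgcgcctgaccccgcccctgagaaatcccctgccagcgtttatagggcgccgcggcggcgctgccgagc
Tnfaip3, chr10:19015361-19015660, minus strand: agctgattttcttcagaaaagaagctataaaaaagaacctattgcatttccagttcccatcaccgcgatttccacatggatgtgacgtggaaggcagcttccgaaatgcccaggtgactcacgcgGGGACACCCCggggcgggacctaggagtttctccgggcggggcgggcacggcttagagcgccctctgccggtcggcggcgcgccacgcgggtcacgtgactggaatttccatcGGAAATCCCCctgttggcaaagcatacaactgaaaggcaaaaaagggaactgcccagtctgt
Nfkbib, chr7:28766595-28766894, minus strand: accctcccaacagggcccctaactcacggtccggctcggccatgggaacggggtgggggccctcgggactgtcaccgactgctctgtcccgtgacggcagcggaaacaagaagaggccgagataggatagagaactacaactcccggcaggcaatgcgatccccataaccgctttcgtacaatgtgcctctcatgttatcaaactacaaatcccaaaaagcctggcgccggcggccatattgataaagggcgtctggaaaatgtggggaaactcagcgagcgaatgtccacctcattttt

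With the annotated start as position 1 and the base before it as position -1, the Nfkbia match began at position -29 and those of Tnfaip3 at positions -125 and -12. In the Nfkb2 window, 2 matches overlapped at positions -39 and -38 and another began at position -11. Nfkb2 has further annotated starts, and both of their windows also held matches, 1 of which is the same stretch in the 2 windows.

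None of the 10 genes passed the test between ERBB2 KO and WT cells. On the log2(CPM + 1) scale, which is used for all differences below and understates changes of weakly expressed genes, 6 genes were higher and 4 were lower in ERBB2 KO cells. All 10 met the filter of at least 1 CPM in at least 3 libraries. With limma, 0 of 10 had an adjusted p under 0.05, and the same was true of 0% of the 11803 genes tested. At an unadjusted p under 0.05 there was 1 gene, Nfkbib, that is 10% of the list, against 13.2% (1561 genes) of all tested genes. For 3 genes all ERBB2 KO libraries exceeded all WT libraries (Rela, Nfkbib and Ikbkb), as 8.76% of all tested genes did. For 1 gene, Tnfaip3, all of them were lower without overlap, against 10.6% of all tested genes. The median difference over the list was 0.23, and over all tested genes it was -0.04. The median size of the difference was 0.31 in the list and 0.32 over all tested genes, and the median within-group SD was 0.33 and 0.36. The number of genes without overlap depended on single libraries. Without WT 2 it was 7 of 10, with 22.9% of all tested genes, and without ERBB2 KO 1 it was 6 of 10, with 37.9% of all tested genes. Leaving out any other library kept it at 4 of 10, with 25.3% (without WT 3) to 42.5% (without WT 1) of all tested genes.

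**Figure D1:**
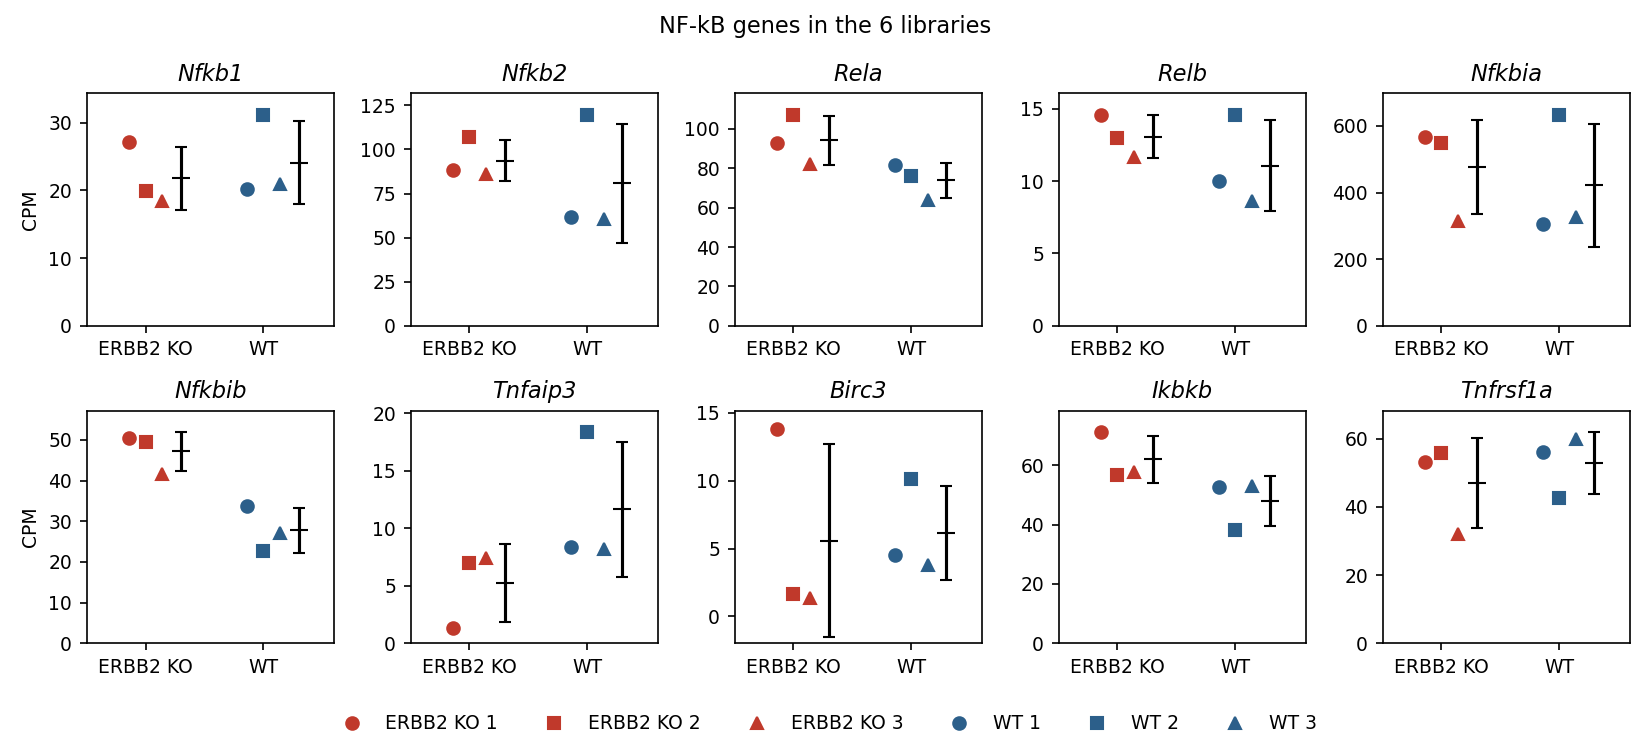
Level of each of the 10 NF-kB genes in CPM (vertical axes) in the 3 ERBB2 KO libraries (red) and the 3 WT libraries (blue), each library with its own symbol. Black bars give the mean ± SD per group (n = 3), and Nfkbib shows the clearest gap between groups (41.6 to 50.4 CPM in ERBB2 KO, 22.7 to 33.7 CPM in WT).

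The Nfkb1, Nfkb2 and Relb subunit genes overlapped between the groups, and Rela did not. Rela (chr19:5637442-5648134), which encodes the p65 subunit that carries the main transactivation domain, measured 93.0, 107.1 and 82.1 CPM in ERBB2 KO 1 to 3, against 81.4, 75.9 and 64.0 CPM in WT 1 to 3. The lowest ERBB2 KO library thus stood only just above the highest WT library. The means were 94.0 ± 12.6 CPM in ERBB2 KO and 73.8 ± 8.90 CPM in WT (SD, n = 3 each), and the log2 difference of 0.35 ± 0.19 SE did not pass (adjusted p = 0.445). Leaving out 1 library in turn gave differences between 0.25 and 0.44.

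Nfkb1 (chr3:135584655-135691969), the gene of p105 and its product p50, measured 27.1, 19.9 and 18.4 CPM in ERBB2 KO 1 to 3, against 20.2, 31.2 and 20.9 CPM in WT 1 to 3. WT 2 was the highest library and ERBB2 KO 1 the next, and the other 4 lay within a narrow band. Its log2 difference was -0.13 ± 0.26 SE (adjusted p = 0.851), and without WT 2 its sign turned (0.063). Nfkb2 (chr19:46300994-46312400), which encodes p100 and its product p52 of the slower branch, measured 88.4, 106.8 and 85.8 CPM in ERBB2 KO 1 to 3, against 61.9, 119.7 and 60.5 CPM in WT 1 to 3. WT 2 exceeded every ERBB2 KO library while WT 1 and WT 3 stood below all of them. The groups differed by 0.28 ± 0.29 SE (adjusted p = 0.681), or 0.60 without WT 2. Relb (chr7:19606217-19629438), the usual partner of p52, measured 14.6, 13.0 and 11.6 CPM in ERBB2 KO 1 to 3, against 10.0, 14.6 and 8.60 CPM in WT 1 to 3. It showed the same arrangement, with WT 2 level with the highest ERBB2 KO library and the other WT libraries below the ERBB2 KO range (0.25 ± 0.27 SE, adjusted p = 0.700; 0.45 without WT 2).

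The inhibitor genes differed in how far the groups were apart. Nfkbib (chr7:28758251-28766644), which encodes IkB beta, measured 50.4, 49.4 and 41.6 CPM in ERBB2 KO 1 to 3, against 33.7, 22.7 and 27.0 CPM in WT 1 to 3. All 3 ERBB2 KO libraries exceeded all 3 WT libraries. The means were 47.2 ± 4.80 CPM in ERBB2 KO and 27.8 ± 5.53 CPM in WT (SD, n = 3 each), a ratio of 1.70. The log2 difference was 0.75 ± 0.22 SE, with a 95% interval of 0.25 to 1.26, but adjustment over all tested genes left it short of the threshold (limma, unadjusted p = 0.00946, adjusted p = 0.330). A two-sided exact permutation test gave p = 0.1, the smallest that 3 libraries against 3 allow. Every gene without overlap gets this value, Rela, Tnfaip3 and Ikbkb included, so it adds nothing to the lack of overlap. The difference stayed between 0.62 and 0.90 when 1 library was left out in turn, and it was 0.42 when ERBB2 KO 2 and 3 were set against WT 1 alone, a comparison chosen after seeing the data. With array quality weights, which let limma trust some libraries less, Nfkbib passed (adjusted p = 0.0307, against 0.104 to 0.998 in the other alternatives). That fit called 1759 of the 11803 tested genes.

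Nfkbia (chr12:55489409-55492647), which encodes IkB alpha and is the classical feedback inhibitor, measured 566.1, 548 and 315 CPM in ERBB2 KO 1 to 3, against 305, 633.8 and 326 CPM in WT 1 to 3. The levels formed a high set (ERBB2 KO 1, ERBB2 KO 2 and WT 2) and a low set (ERBB2 KO 3, WT 1 and WT 3), each holding libraries of both groups. The log2 difference was 0.21 ± 0.35 SE (adjusted p = 0.816). It was 0.54 without WT 2 and 0.02 at its lowest among the fits that left out 1 library.

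The feedback genes Tnfaip3 and Birc3 varied most. Over the 6 libraries they spanned 3.05 and 2.65 log2 units, where the median over the 10 genes was 0.93 and over all tested genes 1.04. Tnfaip3 (chr10:19000910-19015410), the gene of the ubiquitin-editing enzyme A20 that shuts off signalling to the IkB kinase, measured 1.34, 6.95 and 7.37 CPM in ERBB2 KO 1 to 3, against 8.38, 18.4 and 8.15 CPM in WT 1 to 3. Every ERBB2 KO library was below every WT library, but ERBB2 KO 2 and 3 stood close to WT 1 and 3, and the distance came mainly from a low ERBB2 KO 1 (12 reads) and a high WT 2 (228 reads). The counting intervals (exact, 95%) were 0.695 to 2.35 CPM in ERBB2 KO 1 and 16.1 to 20.9 CPM in WT 2. For the remaining libraries they overlapped across the groups, for example 5.76 to 9.30 CPM in ERBB2 KO 3 and 6.68 to 9.84 CPM in WT 3. The group means were 5.22 ± 3.37 CPM in ERBB2 KO and 11.6 ± 5.84 CPM in WT (SD, n = 3 each). The log2 difference of -1.14 ± 0.57 SE did not pass (adjusted p = 0.417). It was -0.54 without ERBB2 KO 1, -0.78 without WT 2 and -0.20 with only ERBB2 KO 2 and 3 and WT 1 kept.

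Birc3 (chr9:7847468-7873205), which encodes the ubiquitin ligase cIAP2 of the TNF receptor complex, measured 13.8, 1.61 and 1.35 CPM in ERBB2 KO 1 to 3, against 4.55, 10.2 and 3.77 CPM in WT 1 to 3. ERBB2 KO 1 was the highest library and ERBB2 KO 2 and 3 were the lowest, so the ERBB2 KO group enclosed the WT group. The counts behind these extremes were 123 reads in ERBB2 KO 1, 19 in ERBB2 KO 2 and 13 in ERBB2 KO 3. This gave a log2 difference of -0.57 ± 0.74 SE (adjusted p = 0.754), with -1.43 without ERBB2 KO 1 and -0.10 without ERBB2 KO 3. In ERBB2 KO 1 the feedback genes stood apart from each other, with the lowest Tnfaip3 and the highest Birc3 of the 6 libraries.

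The upstream genes showed small differences. Ikbkb (chr8:22659205-22706589), which encodes the IkB kinase subunit IKK beta, measured 71.4, 56.9 and 57.9 CPM in ERBB2 KO 1 to 3, against 52.7, 38.3 and 53.0 CPM in WT 1 to 3. There was no overlap, though ERBB2 KO 2 and 3 stood close to WT 1 and 3. The log2 difference was 0.37 ± 0.21 SE (adjusted p = 0.460), between 0.22 and 0.45 with 1 library left out and 0.12 with only ERBB2 KO 2 and 3 and WT 1 kept. Tnfrsf1a (chr6:125349723-125362483), the gene of the widely expressed TNF receptor 1, measured 53.3, 55.9 and 32.0 CPM in ERBB2 KO 1 to 3, against 56.2, 42.8 and 60.0 CPM in WT 1 to 3. ERBB2 KO 3 was the lowest library and the rest were mixed. The groups differed by -0.19 ± 0.27 SE (adjusted p = 0.776), and without ERBB2 KO 3 it was 0.056.

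**Figure D2:**
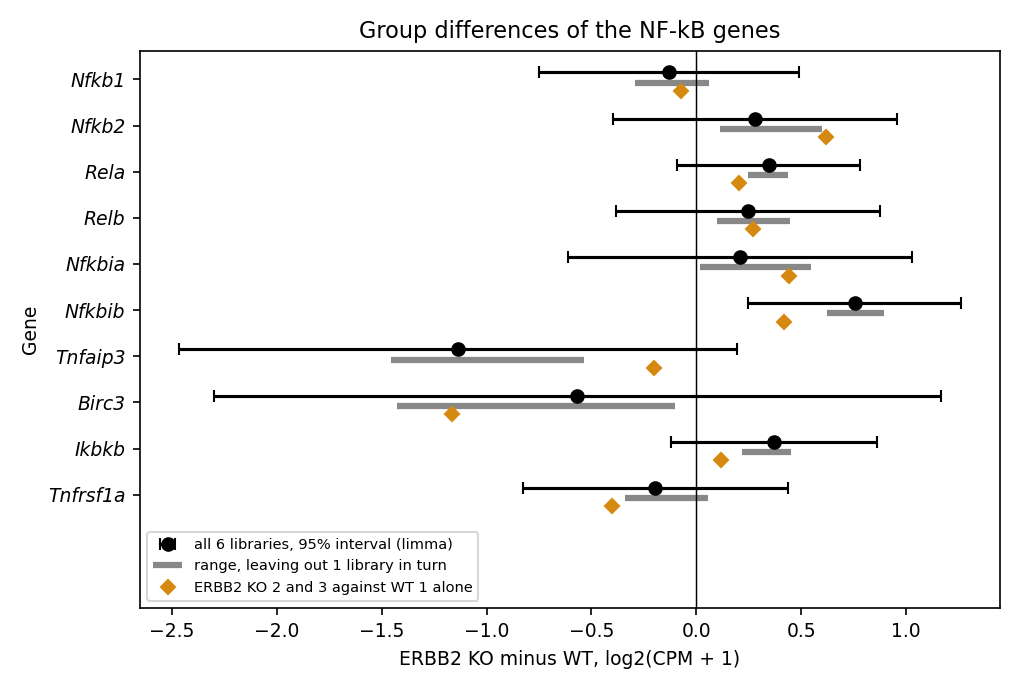
ERBB2 KO minus WT difference of each gene in log2(CPM + 1) (horizontal axis), as the limma estimate with its 95% interval (black), the range when 1 library at a time was left out (grey) and the value with only ERBB2 KO 2 and 3 and WT 1 kept (orange). Only the interval of Nfkbib, 0.25 to 1.26, does not include 0 before adjustment, and the grey ranges of Nfkb1 and Tnfrsf1a reach across 0.

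The libraries differed in which genes they held high. WT 2 was the highest library for 5 genes, Nfkb1, Nfkb2, Relb, Nfkbia and Tnfaip3, and the lowest for Nfkbib and Ikbkb. Over all tested genes it was the highest for 19.8% and the lowest for 21.5%. The 3 genes with a kappaB match in their promoter window were all among these 5, but Nfkb1 and Relb had no window to search. Of the 22 tested textbook targets described below, WT 2 was the highest library for only 3 and the lowest for 6. ERBB2 KO 1 was the highest for Nfkbib, Birc3 and Ikbkb and the lowest for Tnfaip3, where over all tested genes it was the highest for 26.1% and the lowest for 25.2%. ERBB2 KO 3 was the lowest for Nfkb1, Birc3 and Tnfrsf1a, and WT 3 for Nfkb2, Rela and Relb. ERBB2 KO 3 and WT 1 were the highest for 0 of the 10 genes, against 11.1% and 11.9% of all tested genes.

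**Figure D3:**
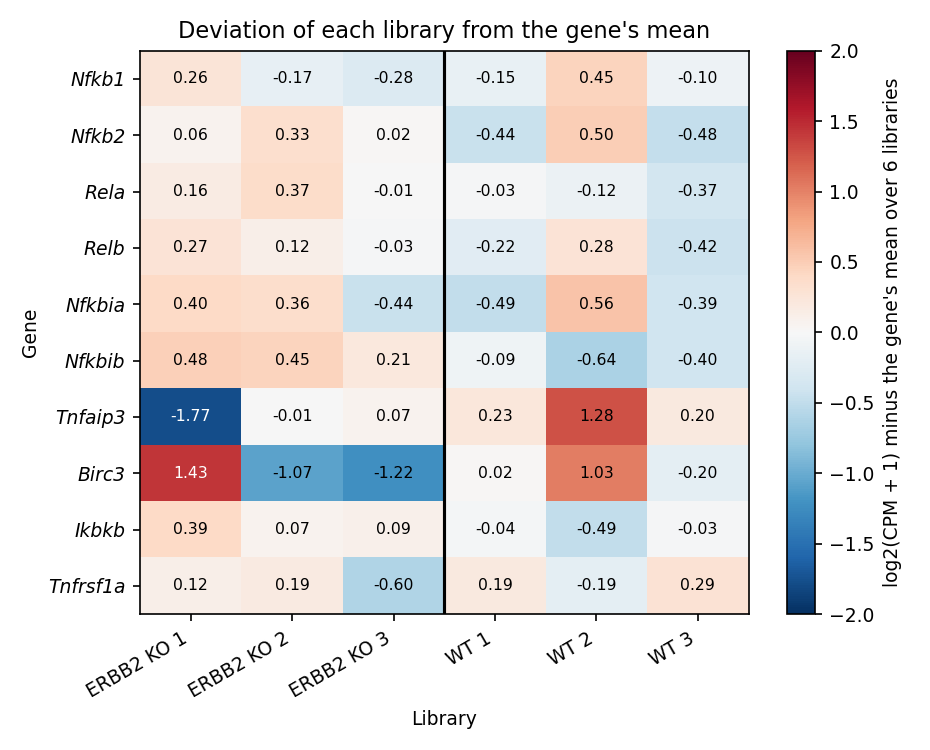
Deviation of each library from the gene's mean over the 6 libraries in log2(CPM + 1), with genes in rows and libraries in columns (ERBB2 KO left of the line, WT right), red above and blue below the mean. The extremes are Tnfaip3 in ERBB2 KO 1 (-1.77) and in WT 2 (1.28) and Birc3 in ERBB2 KO 1 (1.43).

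For the 4 genes that spanned at least 1 log2 unit, the tested genes with the most similar profile were sought by the root mean square difference of centred log2(CPM + 1) values over the 6 libraries, among 10653 candidates. The likeness is a description over few libraries. Nearest to Nfkbia was Nfkbie (0.150), the gene of another inhibitor, IkB epsilon, with 20.3, 17.7 and 8.31 CPM in ERBB2 KO 1 to 3, against 8.56, 17.2 and 8.15 CPM in WT 1 to 3. It repeated the high set and the low set of Nfkbia. Next came Trp53i13 (0.151). Nearest to Nfkbib were Cyhr1 (0.0401) and Vps28 (0.0560). Vps28 encodes a subunit of the endosomal sorting complex ESCRT-I. Both lie on chromosome 15 (chr15:76643395-76660208 and chr15:76622086-76626084) and not on chromosome 7 with Nfkbib. Cyhr1 measured 75.3, 76.8 and 63.9 CPM in ERBB2 KO 1 to 3, against 54.9, 35.3 and 40.6 CPM in WT 1 to 3. Nearest to Tnfaip3 were Fat1, an atypical cadherin gene (0.173), and Nabp1 (0.174). Nearest to Birc3 was Il1rap (0.239), the gene of the accessory chain of the interleukin-1 receptor, with 13.4, 1.19 and 1.87 CPM in ERBB2 KO 1 to 3, against 3.46, 11.4 and 4.75 CPM in WT 1 to 3. Eif4e3 followed at 0.294.

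**Figure D4:**
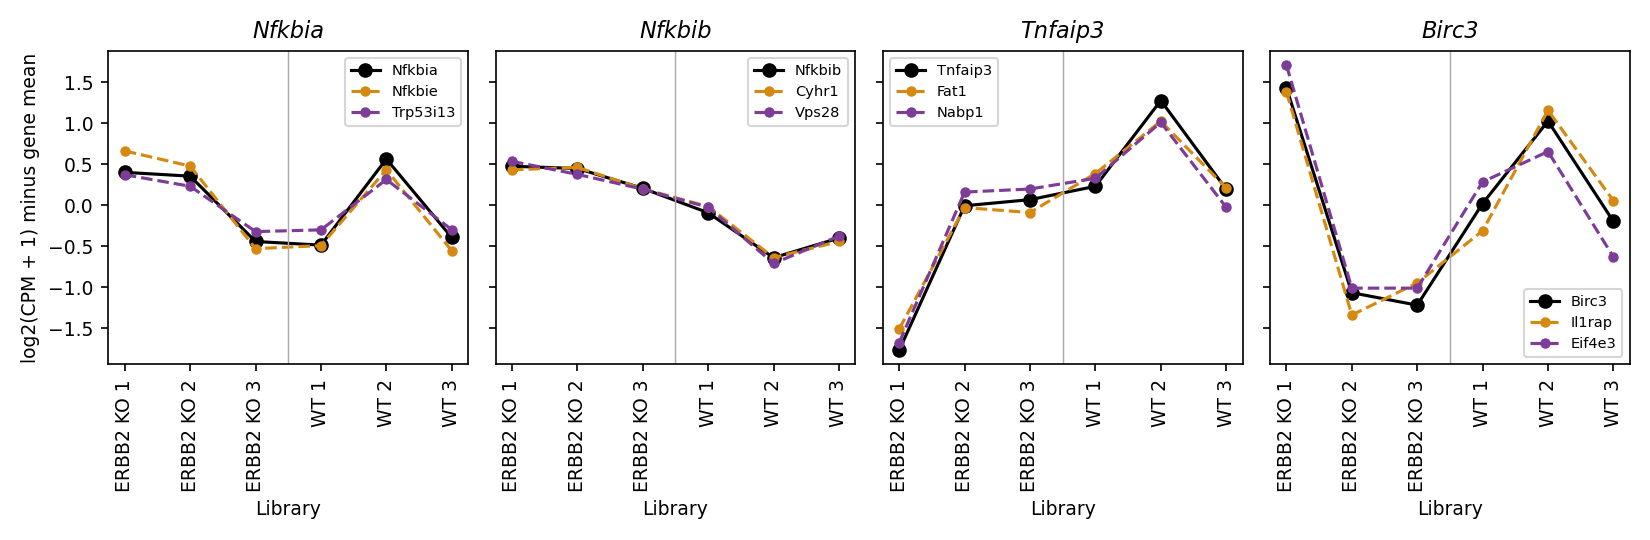
Profiles over the 6 libraries of Nfkbia, Nfkbib, Tnfaip3 and Birc3 (black) and of the tested genes most similar to each (coloured), as log2(CPM + 1) minus the gene's own mean, with ERBB2 KO libraries left of the line. Cyhr1 and Vps28 differ from Nfkbib by a root mean square of at most 0.0560, and Nfkbie repeats the 3 high and 3 low libraries of Nfkbia.

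The wider pathway was read from lists by role, and none of their genes passed the test either. Of the other subunits and inhibitors, 4 were tested and all 4 were higher in ERBB2 KO by value (median log2 difference 0.39, unadjusted p under 0.05 for 0 of 4). Rel, the gene of the c-Rel subunit, was the only one without overlap, at 15.2, 23.7 and 15.2 CPM in ERBB2 KO 1 to 3, against 13.0, 13.2 and 13.9 CPM in WT 1 to 3 (0.38, or 0.17 without ERBB2 KO 2, adjusted p = 0.523). Nfkbiz and Bcl3, genes of nuclear IkB proteins, had differences of 0.70 (0.38 without WT 2) and 0.14 (-0.03 without ERBB2 KO 2) with overlap. These differences were -0.16 and -0.40 with only ERBB2 KO 2 and 3 and WT 1 kept. Among 22 genes of kinases and adaptors, 12 were higher and 10 lower (median 0.02), with 1 at an unadjusted p under 0.05, that is 4.55% against 13.2% of all tested genes. That gene was Irak2, a kinase gene of interleukin-1 and Toll-like receptor signalling, with 21.1, 36.9 and 18.4 CPM in ERBB2 KO 1 to 3, against 34.8, 81.9 and 47.1 CPM in WT 1 to 3 (log2 difference -1.05, or -0.71 without WT 2, adjusted p = 0.350). WT 2 was its highest library, as it was for Tnfaip3 and Nfkbia. Traf1, a TNF receptor adaptor gene, stood above WT without overlap (0.49, or 0.29 without WT 1, adjusted p = 0.412), and Tab2, which links ubiquitin chains to TAK1, below (-0.36, adjusted p = 0.426). The interleukin-1 receptor kinase gene Irak4 had a difference of 0.74 with overlap (0.44 without WT 2). It was -0.04 with only ERBB2 KO 2 and 3 and WT 1 kept.

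Of 14 tested ubiquitin regulators, 9 were higher and 5 lower (median 0.06), 5 stood above WT without overlap and 0 below (8.76% and 10.6% of all tested genes), and 3 had an unadjusted p under 0.05 (21.4% of the list, 13.2% of all tested genes). Those 3 were Tnip3, Tnip1 and Sharpin. Tnip1 and Tnip3 encode A20-binding inhibitors of NF-kB, partners of the Tnfaip3 product. Tnip3 measured 23.4, 8.90 and 5.09 CPM in ERBB2 KO 1 to 3, against 3.55, 0.322 and 0.377 CPM in WT 1 to 3 (2.49 ± 0.66 SE, adjusted p = 0.321, between 1.94 and 3.08 with 1 library left out). Its difference was 0.77 with only ERBB2 KO 2 and 3 and WT 1 kept, and its values in WT 2 and WT 3 stood near the level of 3 reads. Tnip1 measured 126, 68.6 and 51.2 CPM in ERBB2 KO 1 to 3, against 42.2, 38.7 and 38.4 CPM in WT 1 to 3 (0.93 ± 0.32 SE, adjusted p = 0.350, and 0.57 without ERBB2 KO 1). For both, ERBB2 KO 1 was the highest library and WT 1 the highest of its group, whereas Tnfaip3 itself was lowest in ERBB2 KO 1. Sharpin, a subunit of the linear ubiquitin ligase, had 36.5, 43.2 and 35.1 CPM in ERBB2 KO 1 to 3, against 31.8, 20.3 and 21.7 CPM in WT 1 to 3 (0.64, adjusted p = 0.350). The Sharpin difference was 0.29 with only ERBB2 KO 2 and 3 and WT 1 kept. Otulin, which removes linear chains, had a difference of 0.41 (adjusted p = 0.416), and the last of the 5 without overlap, named after its value was seen, was Tnip2, the gene of another A20-binding protein (0.38, adjusted p = 0.499).

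Of the 10 tested receptors other than Tnfrsf1a, 6 were higher and 4 lower (median 0.47), and 2 had an unadjusted p under 0.05 (20% of the list, 13.2% of all tested genes). Fas, the gene of the death receptor, measured 6.94, 6.44 and 2.80 CPM in ERBB2 KO 1 to 3, against 2.37, 1.77 and 0.981 CPM in WT 1 to 3 (1.20, adjusted p = 0.350). Il1r1, the gene of the signalling interleukin-1 receptor, measured 18.1, 24.0 and 12.3 CPM in ERBB2 KO 1 to 3, against 13.1, 7.01 and 6.64 CPM in WT 1 to 3, with overlap at WT 1 (0.96, adjusted p = 0.350). The Il1r1 difference was 0.37 with only ERBB2 KO 2 and 3 and WT 1 kept. Tnfrsf12a, the receptor of TWEAK, stood below WT without overlap (-0.66, or -0.29 without ERBB2 KO 1, adjusted p = 0.416), and Ltbr, the lymphotoxin beta receptor, had a difference of -0.37 (-0.21 without ERBB2 KO 3). Of 10 listed ligand genes 4 were among the rows analysed here, and of these only Tnfsf12, which encodes TWEAK, met the filter (-0.58, adjusted p = 0.818), at -1.61 without ERBB2 KO 1 and 0.010 without ERBB2 KO 2.

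Of 30 textbook targets 22 were tested, of which 14 were higher and 8 lower (median 0.32). At an unadjusted p under 0.05 there were 7, 6 higher and 1 lower, that is 31.8% of the list against 13.2% of all tested genes. Without overlap 4 stood above and 1 below WT, against 8.76% and 10.6% of all tested genes. Ier3, an early response gene, measured 554.8, 427 and 334 CPM in ERBB2 KO 1 to 3, against 236, 206 and 172 CPM in WT 1 to 3 (1.08 ± 0.23 SE, unadjusted p = 0.00203 and adjusted p = 0.321 by limma). Cxcl5, a neutrophil chemokine gene, measured 803.8, 196 and 132 CPM in ERBB2 KO 1 to 3, against 54.6, 77.5 and 68.9 CPM in WT 1 to 3 (2.04, or 1.27 without ERBB2 KO 1, adjusted p = 0.336). Ccl2, the monocyte chemokine gene, measured 64.3, 257 and 78.5 CPM in ERBB2 KO 1 to 3, against 58.2, 3.54 and 4.07 CPM in WT 1 to 3 (3.31, adjusted p = 0.341). Here WT 1 stood close to ERBB2 KO 1 and 3, and WT 2 and 3 were low, with a difference of 4.52 without WT 1 and of 1.27 with only ERBB2 KO 2 and 3 and WT 1 kept. Saa3, an acute phase gene, measured 16.7, 6.28 and 3.43 CPM in ERBB2 KO 1 to 3, against 2.28, 0.806 and 2.19 CPM in WT 1 to 3 (1.64, or 1.09 without ERBB2 KO 1, adjusted p = 0.350). The other 3 at that level were, by their values, Cxcl1 (0.97), Tapbp (1.26, or 0.72 without ERBB2 KO 1) and Lif (-1.02), all with overlap, and the target that stood below WT without overlap was Gadd45b (-0.59, or -0.36 without ERBB2 KO 3, adjusted p = 0.387). With only ERBB2 KO 2 and 3 and WT 1 kept, the differences of Cxcl1, Tapbp and Lif were 0.10, 0.37 and -1.58. In ERBB2 KO 1 the level was the highest of the 6 libraries for 11 of the 22 targets, 6 of the 14 ubiquitin regulators, 5 of the 10 receptors, 8 of the 22 kinases and adaptors and 1 of the 4 other subunits and inhibitors, against 26.1% of all tested genes. ERBB2 KO 1 was the lowest library for 3, 2, 2, 4 and 0 genes of these lists in the same order, against 25.2% of all tested genes.

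**Figure D5:**
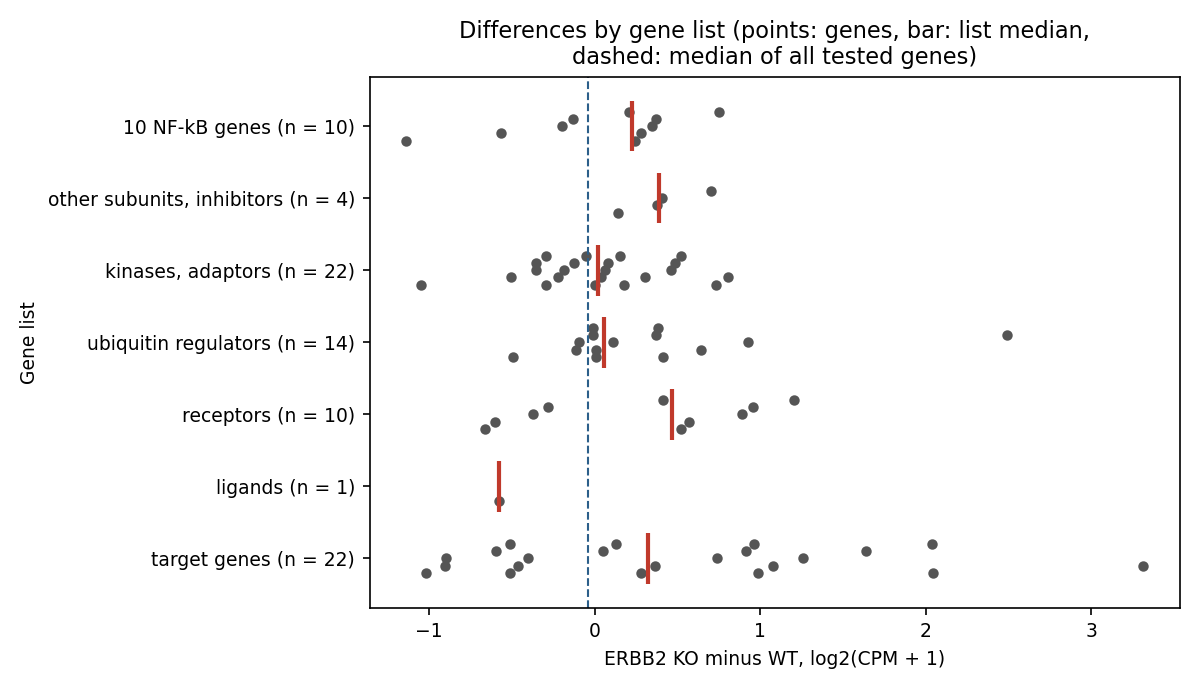
ERBB2 KO minus WT difference in log2(CPM + 1) (horizontal axis) of every tested gene in the 10 NF-kB genes and in the lists of other pathway genes and targets (rows), with red bars for list medians and a dashed line for the median of all tested genes (-0.04). List medians run between -0.58 for the single ligand gene and 0.47 for receptors, and targets and ubiquitin regulators hold the points farthest to the right.

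ERBB2 KO 1 also differed in markers of other cells. The fibroblast list, with 6 of 7 markers among the rows analysed here, summed to between 49.0 and 320.7 CPM in ERBB2 KO libraries and between 54.7 and 229 CPM in WT libraries. Its highest sum was in ERBB2 KO 1, but its members did not move together. Dcn, Pdgfra and Pdgfrb were highest in ERBB2 KO 1, where Dcn measured 267 CPM, against at most 22.3 CPM in any other library. The collagen gene Col1a2 was lowest there, at 0.896 CPM, against 5.51 to 199.8 CPM in the others, and Col3a1 was highest in ERBB2 KO 2 and Col1a1 in WT 1. The leukocyte list (5 of 8 markers) summed to between 12.5 and 43.8 CPM in ERBB2 KO libraries and between 13.7 and 22.2 CPM in WT libraries, again highest in ERBB2 KO 1. Ptprc, the defining leukocyte gene, was at 0 in ERBB2 KO 1 and at no more than 0.415 CPM elsewhere, and the endothelial sum (3 of 4 markers) stayed under 1 CPM in every library. The part of these markers in the NF-kB results was not tested. In bulk RNA, fewer cells of a type and less RNA per cell cannot be told apart.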

How the data were processed

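Bulk RNA of 3 ERBB2 KO and 3 WT libraries was analysed from the single deposited table. Per the authors' file name the values are CPM, but they fall below 0, so the deposited values were read as log2 of CPM plus a small prior. Undoing the log2 and subtracting the shared floor (0.179 CPM) gave values that were whole multiples of 1 read within 0.1 of a step, and from these came the read numbers and library totals. The submitters' processing notes name mm10. Which aligner and counting tool made the expression values is not given in the sources used here. Bwa, Samtools and GRCm39 do stand in the methods, the last another build than mm10, in a passage that continues with mutations and exon coverage and not with gene expression, so it was not applied to this table. For the library kit, TruSeq total RNA is named in the labels and QuantSeq 3' in the methods, which was not settled, so levels were not compared between genes.

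A gene was tested if 3 or more libraries had 1 CPM or more. The test was limma (version 3.58.1, R 4.3.3) on log2(CPM + 1), with lmFit, eBayes with trend and the group alone in the model, two-sided, and with Benjamini-Hochberg adjustment over 11803 genes at a threshold of 0.05. The fit was also run on simulated reads with the same spread for every gene and no outlying library. Such data do not show how it handles libraries as unlike as these. Rows with symbols turned into dates (14 rows, 0.0966% to 0.184% of reads) counted in the totals but were not tested, and 23 rows that repeat a symbol were kept. Counting intervals are exact binomial and cover counting error only. Coordinates and promoter windows are from RefSeq for GRCm38.p6, counted from 1.

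The 10 genes, the pathway lists and the tests were chosen with earlier results of these data known. Named were all 10 genes, Erbb2, the up to 4 tested genes of each pathway or target list with the smallest unadjusted p, and, for genes of the 10 that spanned at least 1 log2 unit, the 2 most similar tested genes apart from Gm and Rik symbols. Outside this rule Xist and cell type markers are named as checks, and Tnip2, Cxcl1, Tapbp, Lif, Gadd45b, Il1a, Lcn2, Ccl5, Icam1, Ptgs2 and Zfp36 after their values were seen. No set test was run. Alternatives changed the pseudocount, the filter, the scaling, the library weights, the model (voom on recovered reads, a replicate block) and the libraries included.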

Additional observations from a re-analysis of the deposited data

How the results depend on the processing

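Pseudocounts of 0.5 and 2 CPM, the deposited log2 values, no filter, a filter of 5 CPM (which left 9 of the 10 genes, without Birc3), other scalings and voom (1553 genes at an unadjusted p under 0.05) all gave 0 called genes, none of the 10 included, 1 at an unadjusted p under 0.05 (Nfkbib) and 4 without overlap. The median difference of the 10 genes was 0.07 to 0.33 with 1 library left out. Array quality weights called 1759 of the 11803 tested genes, 1 of the 10 (Nfkbib) and 9 pathway genes. They put 2 of the 10 at an unadjusted p under 0.05, against 4181 of the 11803 tested genes. The cause of these higher counts was not tested. Leaving out 1 library in turn called 0 to 146 of all tested genes (146 without WT 1, 30 without ERBB2 KO 1), 0 of the 10 and 0 to 1 pathway genes. In these fits 618 to 2473 of the 11803 tested genes had an unadjusted p under 0.05, and 22.9% to 42.5% were without overlap. Of the 10 genes, 1 to 2 were at an unadjusted p under 0.05 and 4 to 7 were without overlap. Without WT 2 and WT 3, an alternative chosen after seeing the data in which the lone WT 1 is assumed to vary like the other group, these counts were 0 and 8, with 44.4% of all tested genes without overlap. Nfkb1 ran from -0.29 to 0.063 with 1 library left out and was 0.086 without WT 2 and WT 3, and Tnfrsf1a ran from -0.34 to 0.056. The replicate block again called 0 genes, with 1286 at an unadjusted p under 0.05 in place of 1561 and 1 of the 10. Libraries of the same number did not deviate together (correlations -0.22, -0.16 and -0.05). With 3 libraries per group this cannot decide if they were paired. With 3 libraries per group Tnfaip3 and Birc3, at 12 to 228 reads a library, are the least precise of the 10.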

Other observations

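Of the ligand and target genes among the rows analysed here that did not meet the filter, 3 were highest in ERBB2 KO 1 and the other 6 stayed under 1 CPM in every library. Il1a, the gene of interleukin-1 alpha, measured 11.5 CPM in ERBB2 KO 1 and had 0 reads in ERBB2 KO 2 and 3 and in the 3 WT libraries. Lcn2, the gene of the iron-siderophore carrier lipocalin-2, measured 51.4, 0.424 and 0.208 CPM in ERBB2 KO 1 to 3, against 0.546, 1.21 and 0.830 CPM in WT 1 to 3. Ccl5, a T cell chemokine gene, measured 17.4, 2.71 and 0 CPM in ERBB2 KO 1 to 3, against 0.273, 0.403 and 0.754 CPM in WT 1 to 3. The 3 genes were singled out after their values were seen. In ERBB2 KO 1 Birc3, Il1rap and Tnip3 were also at their highest and Tnfaip3 at its lowest. Of the 22 tested targets, 3 were lowest in this library, namely Icam1, Ptgs2 and Zfp36. Icam1 measured 0.672 CPM there, against 4.75 to 10.1 CPM in the other libraries.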
